A study of Homo sapiens with 2 samples.

Results

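Autophagy genes were followed in an olaparib-resistant derivative of SKOV3, a human ovarian cancer cell line, and in its parental line. The 42 genes are a list of the core machinery and cover the steps from the start of an autophagosome to the capture of its cargo. Of these, 39 had at least 1 transcript among the 16978 genes of the deposited table, and ATG4C, GABARAP and GABARAPL1 were not analysed here. The resistant group was 1 library of cells exposed without a break to olaparib, which blocks PARP enzymes of DNA repair, at a concentration below its IC50 for at least 3 months. The parental group was 1 library of untreated cells. Both groups are labelled wild type and grew in the same serum-containing medium, and whether the derivative is a single clone, or was sampled in the drug, is not stated.

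With 1 library per group there was no test, no replicate check and no error on any value, and every difference below compares these 2 libraries. The libraries were made from total RNA depleted of ribosomal RNA. Each transcript has 1 normalized expression value per library of unnamed unit, called its listed value. Values followed a count divided by the length of the locus, introns included, and depth is unknown. They summed to 47632 in the resistant library, against 46879 in the parental library. Of 9 epithelial markers 7 had a value, and WT1 and MUC16 were not analysed here. KRT8 was the highest, at 318.2 in resistant cells, against 166.4 in parental cells, while KRT18 (5.83 in resistant, 14.3 in parental) and ERBB2 (3.84 in resistant, 5.37 in parental) differed the other way. KRT7 (73.3 in resistant, 62.6 in parental) and PAX8 (0.489 in resistant, 0.0738 in parental) were higher in resistant cells. EPCAM and CDH1 lay below 0.1 in both libraries. Few of the listed transcripts are mRNAs, as described below, so marker values do not stand for marker mRNA. Of the 12 fibroblast, immune and endothelial markers, 2 had a value, summing to 0.212 (resistant) against 0.273 (parental), and the others were not analysed here.

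Autophagy encloses cytoplasm in a double membrane, the autophagosome, and delivers it to the lysosome. The ULK1 kinase complex starts the process, a lipid kinase complex around Beclin 1 marks the membrane, and lipid transfer proteins feed its growth. A ubiquitin-like system then couples ATG12 to ATG5 and fixes ATG8 proteins such as LC3 to the membrane, where cargo receptors dock. In cancer cells the pathway recycles nutrients and removes damaged organelles.

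The 39 listed genes had 187 transcripts, between 1 and 13 each, and 183 of these were found by identifier in GENCODE release 29 with the same GRCh38 start and end. By that annotation 114 (61.0%) were retained-intron transcripts, 66 (35.3%) were processed transcripts, a non-coding class, and 3 were protein-coding. Retained-intron transcripts held 83.7% of the members' summed value in the resistant library, against 77.8% in the parental one. Over all 47892 transcripts of the table their share of the value was 55.9% in the resistant library, against 50.6% in the parental library. Only 55 of the 47892 (0.115%) were annotated as protein-coding, so mRNAs are nearly absent and a majority of non-coding transcripts was set in advance. Most of the listed value of the autophagy genes belongs to transcripts annotated as retaining introns, and the sums do not stand for their mRNAs.

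What such a transcript looks like is shown for the 4 members with the highest ratios, for MAP1LC3B, and for VMP1, the member with the highest value, as 30 bases around an exon edge, read 5′ to 3′ from GENCODE release 29. Lower case marks coding exon bases and capitals mark bases of introns that flank those exons in protein-coding isoforms. The VMP1-205 line, all in lower case, is a junction from which the intron has been removed.
VMP1-216 (chr17:59838383-59838412, plus strand): atgggcacaccacagGTAAGACTTTAATCC
VMP1-205 (joined from chr17:59838383-59839782, plus strand): atgggcacaccacagggagaaaactggttg
VMP1-207 (chr17:59735459-59735488, plus strand): ggaatggacctcaaaGTAAAGAGTCTTCTC
ATG12-203 (chr5:115832650-115832679, minus strand): CTTCCTTTCTTGTAGtttatttatgtgaat
ATG12-206 (chr5:115837750-115837779, minus strand): ATTCTTCTTTTACAGttgacattttgctaa
CALCOCO2-206 (chr17:48848152-48848181, plus strand): aagtccaattcaaagGTGAGAAAAATACTG
ATG13-222 (chr11:46659471-46659500, plus strand): tccccaccatcccagGTAGGGGGAAGCAGG
TAX1BP1-211 (chr7:27758119-27758148, plus strand): tactagcattccaagGTAAGGACTGAAAAC
MAP1LC3B-202 (chr16:87398856-87398885, plus strand): ccaaccaaaatcccgGTAGGTAGTCTCAGG

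Listed values were summed per gene, and the log2 ratio compares resistant with parental sums after adding a pseudocount of 1, a scale on which differences of low genes are understated. Of the 39 genes, 24 averaged 1 or more across the libraries and are called expressed, while 15 stayed below it. Among the 24, 4 genes were at least 2-fold higher in the resistant line on this scale, ATG12, CALCOCO2, ATG13 and TAX1BP1, where 8.5% of all 5767 expressed genes were. None was at least 2-fold lower, where 4.37% of all expressed genes were. The median log2 ratio of the 24 was 0.23, beside 0.16 for all expressed genes, and 17 of the 24 lay above 0, as did 61.9% of all expressed genes. Of the 24, 5 (ATG101, ATG2B, ATG5, ATG16L2 and TAX1BP1) had a parental sum under 1 and passed the filter through the resistant library, and MAP1LC3B passed through the parental one. In a bulk library, a change in the share of cells with a transcript and a change in its level per cell cannot be told apart.

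Since the median of all expressed genes was 0.16 and not 0, ratios were also centred on it. ATG12 then had a log2 ratio of 1.60, CALCOCO2 1.27, ATG13 1.03 and TAX1BP1 0.99, just under the 2-fold threshold. On the low side ATG4B had −1.12, past the threshold, MAP1LC3B −0.91 and ULK3 −0.84. The centred median of the 24 members was 0.06. Across the 5767 genes, 490 passed 2-fold upwards and 252 downwards before centring, beside 351 upwards and 378 downwards after it.

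**Figure D1:**
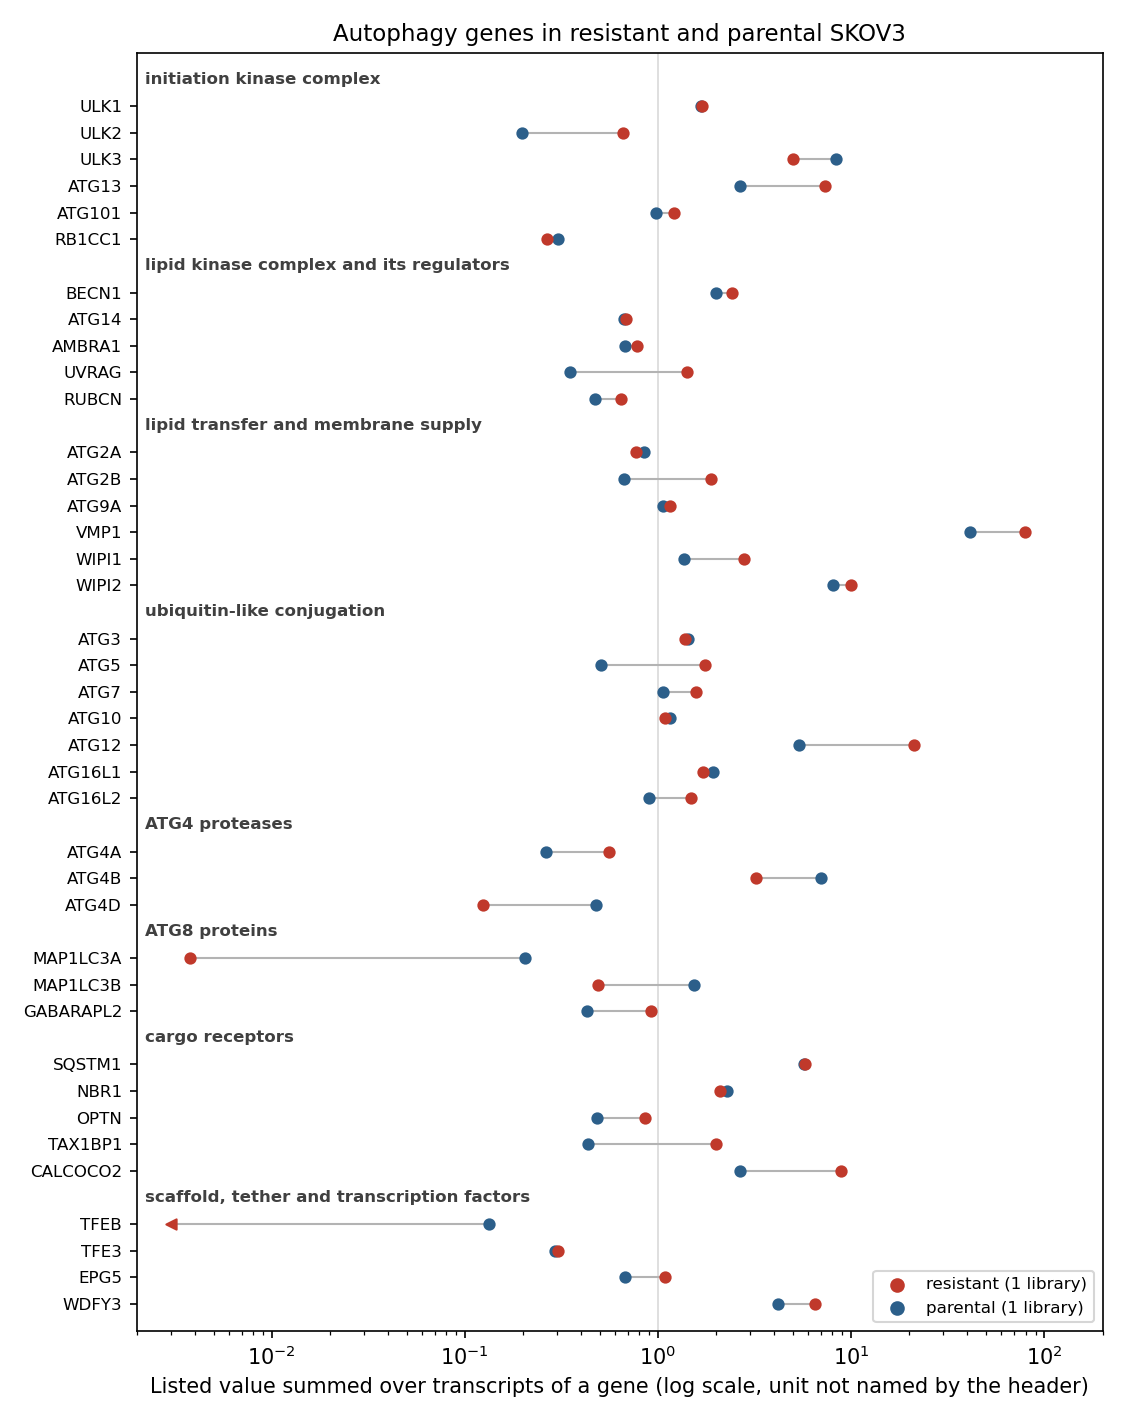
Listed value of each of the 39 autophagy genes with a transcript in the table, summed over its transcripts, on a log axis; red points are the resistant and blue points the parental library, 1 library each, joined by a grey line and grouped by role. The axis shows sums without a pseudocount, so more genes lie over 2-fold apart than the 4 named above. Among them UVRAG, ATG5, ULK2, ATG2B, WIPI1, ATG4A and GABARAPL2 are higher and ATG4B, MAP1LC3B, ATG4D, MAP1LC3A and TFEB lower in the resistant line. Of these, UVRAG, ULK2, ATG4A, GABARAPL2, ATG4D, MAP1LC3A and TFEB are below the expression threshold. The share of all genes past 2-fold on this scale was not counted. VMP1 has the highest value in both libraries (79.8 in resistant, 41.4 in parental), and the arrowhead for TFEB marks a resistant value off the axis at 0.000272.

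**Figure D2:**
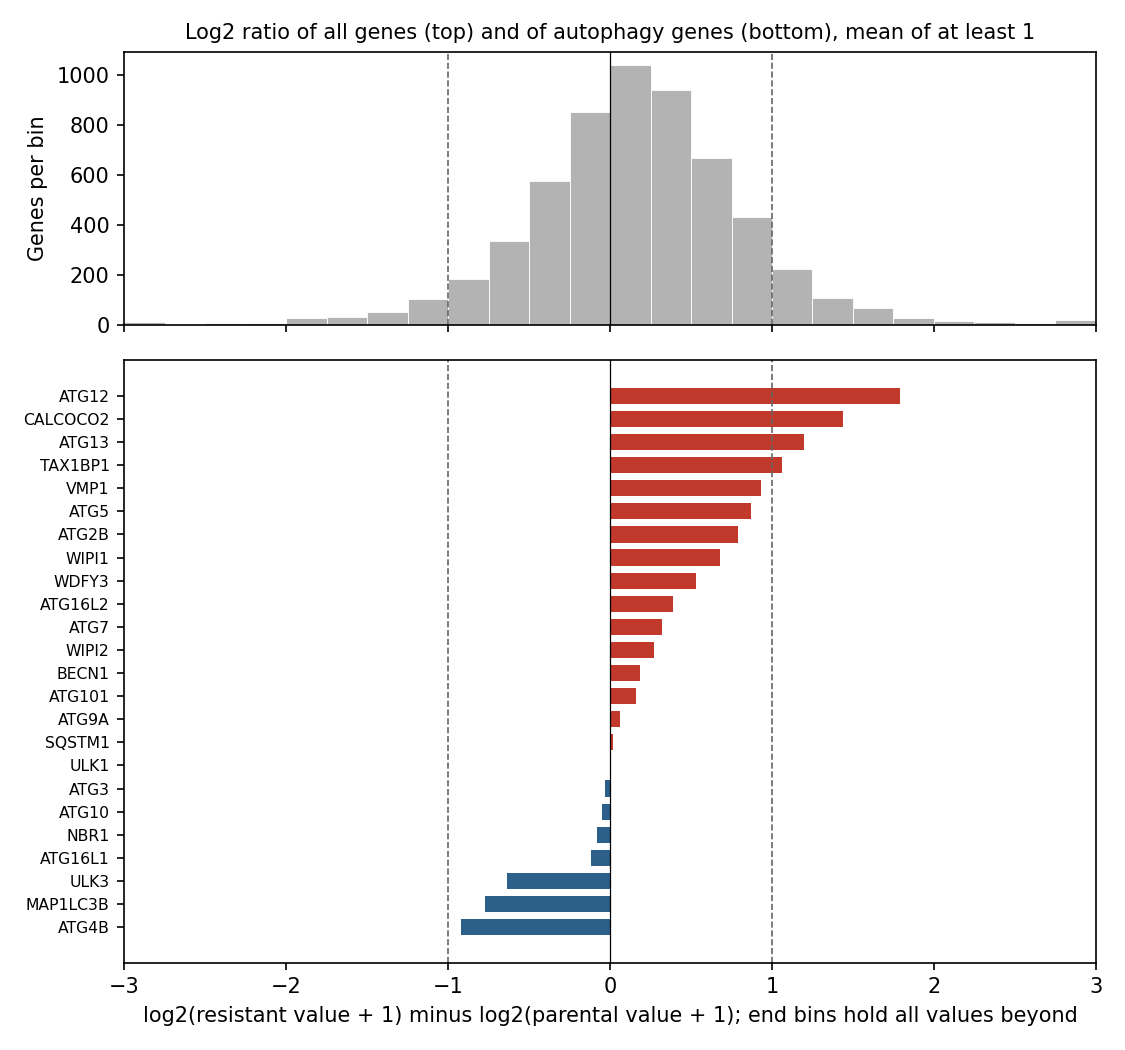
Log2 ratio, resistant over parental with a pseudocount of 1, as a histogram of all 5767 expressed genes (top, bins of 0.25) and as bars for the 24 expressed autophagy genes (bottom), with dashed lines at 2-fold. The autophagy genes spread from −0.92 (ATG4B) to 1.79 (ATG12) within the range of all genes.

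Of the initiation complex, ATG13 differed most. ATG13, the subunit that links the ULK kinases to the membrane scaffold (ENSG00000175224, chromosome 11, 46617527 to 46674818), had a summed value of 7.34 in the resistant line, against 2.64 in the parental line, with a log2 ratio of 1.20. Most of this came from the retained-intron transcript ATG13-222, at 5.03 in resistant cells, against 1.22 in parental cells, which held 68.5% of the gene's value in the resistant library, against 46.0% in the parental one. ATG13-217, the next, had 0.521 in resistant and 0.292 in parental cells. Without ATG13-222 the other 9 transcripts gave a log2 ratio of 0.45. The authors' deposited table lists ATG13-222 with a log2 fold change of 1.76 (adjusted p = 0.000106).

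ULK3, a kinase related to ULK1 with a part in autophagy during senescence, went the other way. Its 10 transcripts summed to 4.98 in the resistant line, against 8.30 in the parental line (log2 ratio −0.64), although 7 of the 10 were higher in resistant cells. The difference sat in ULK3-222, at 0.422 in resistant cells, against 4.61 in parental cells, and without it the log2 ratio was 0.25. ULK3-202 shares its 3′ end and the kept intron of 181 bases, starts 207 bases further downstream, and was level at 1.48 in resistant and 1.49 in parental cells. Of the other transcripts, ULK3-204 had 1.01 in resistant and 0.561 in parental cells, ULK3-206 had 0.595 in resistant and 0.454 in parental cells, and ULK3-219 had 0.447 in resistant and 0.746 in parental cells. The authors' deposited table gives ULK3-222 a log2 fold change of −3.72 (adjusted p = 1.48e-14).

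The founding kinase ULK1 was level, with a sum of 1.684 in resistant cells, against 1.679 in parental cells (log2 ratio 0.00, and −0.14 once centred). ATG101, which stabilises ATG13, had 1.21 in resistant and 0.972 in parental cells. ULK2, close kin of ULK1, had 0.661 in resistant and 0.198 in parental cells, below the expression threshold, and RB1CC1, the scaffold of the complex, had 0.266 in resistant and 0.303 in parental cells. The initiation genes thus spread in both directions. Log2 ratios ran from −0.64 (ULK3) to 1.20 (ATG13).

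Around the lipid kinase, all 5 listed genes lay above 0 before centring, most of them by little, and AMBRA1 and ATG14 lay below 0 once centred. BECN1, which encodes Beclin 1, had 2.42 in resistant cells, against 2.00046 in parental cells (log2 ratio 0.19) and was the only one to reach the expression threshold. UVRAG, a Beclin 1 partner in endosome and autophagosome maturation, had 1.41 in resistant and 0.351 in parental cells (0.83). Its retained-intron transcript UVRAG-206 had 0.926 in resistant and 0.0817 in parental cells. ATG14, the subunit that directs the complex to autophagy, had 0.684 in resistant and 0.666 in parental cells, AMBRA1, a Beclin 1 regulator, 0.778 in resistant and 0.678 in parental cells, and RUBCN, an inhibitor of the complex, 0.642 in resistant and 0.469 in parental cells. Within RUBCN, transcripts differed in opposite directions. RUBCN-208 had 0.483 in resistant cells, against 0.0282 in parental cells, and RUBCN-207 had 0.0219 in resistant and 0.309 in parental cells. Deposited fold changes correspond to counts of 244 in resistant and 21 in parental for RUBCN-208. For RUBCN-207 they are 0 in resistant and 1017 in parental. Values are divided by locus length (10648 bases for RUBCN-208, 47992 for RUBCN-207), so the higher RUBCN sum does not mean more reads in resistant cells.

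VMP1, an endoplasmic reticulum lipid scramblase needed for autophagosome growth (ENSG00000062716, chromosome 17, 59707192 to 59842255), had the highest value of all members. It summed to 79.8 in resistant cells, against 41.4 in parental cells (log2 ratio 0.93) and made up 44.0% of the members' value in the resistant library, against 37.4% in the parental one. The single-exon transcript VMP1-216, which runs through an intron near the 3′ end of the gene, had 42.0 in resistant and 29.4 in parental cells. VMP1-205, which starts 20 bases further on and has that intron of 1370 bases removed, had 27.4 in resistant and 7.99 in parental cells. VMP1-205 stood at 0.654 of VMP1-216 in resistant cells and 0.271 in parental cells. VMP1-205 is itself annotated as a retained-intron transcript, with 34.6% of its bases outside coding exons. The ratio thus concerns this 1 intron and does not compare mRNA with unspliced RNA. VMP1-208 and VMP1-212, which also lack this intron, differed in opposite directions. VMP1-208 had 0.894 in resistant and 2.87 in parental cells, and VMP1-212 had 1.23 in resistant and 0.158 in parental cells. The assembled transcript VMP1-OT1 (59697311 to 59707408), most of which lies upstream of the gene, had 0.839 in resistant and 0.413 in parental cells. In the first part of the gene, VMP1-207 had 7.29 in resistant cells, against 0.433 in parental cells. Values are divided by locus length, 28074 bases for VMP1-207, 4325 for VMP1-216 and 2365 for VMP1-205. VMP1-207 thus held a larger part of the gene's reads than of its value. In the authors' deposited table the log2 fold change was 0.23 for VMP1-216 (adjusted p = 0.697), 1.49 for VMP1-205 (adjusted p = 0.00117) and 3.79 for VMP1-207 (adjusted p = 1.7e-15).

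**Figure D3:**
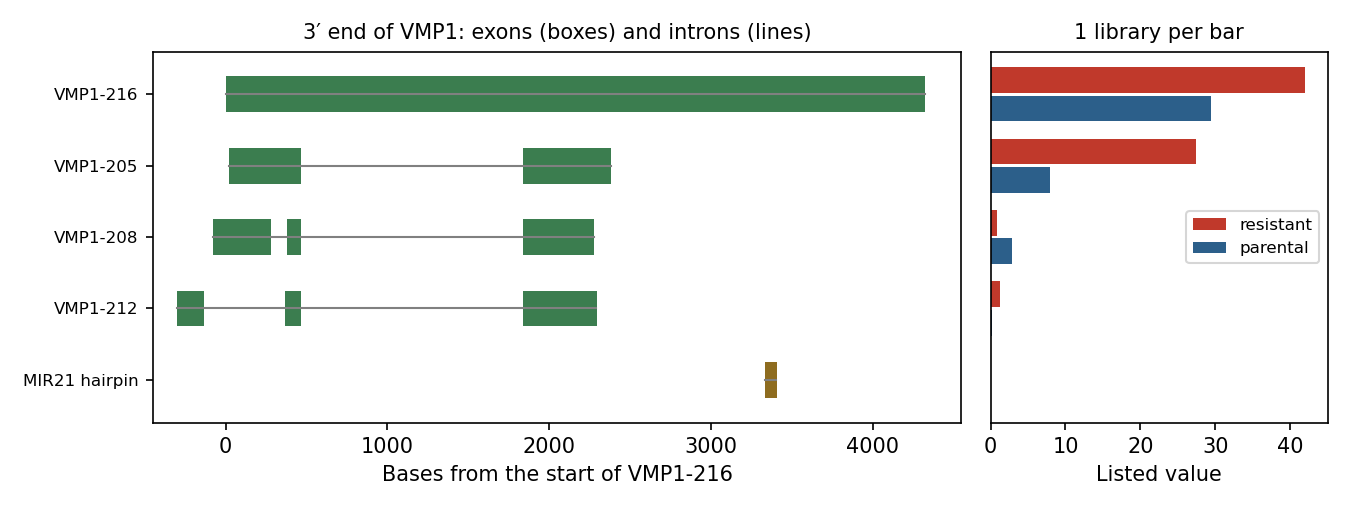
Exons (boxes) and introns (lines) of the 4 VMP1 transcripts at the 3′ end of the gene and the MIR21 hairpin, as bases from the start of VMP1-216 (left), with the listed value of each transcript in the resistant (red) and parental (blue) library, 1 library each (right). VMP1-216 keeps the intron and spans the hairpin, while VMP1-205 lacks the intron and ends before the hairpin.

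VMP1-216 also contains the hairpin of the microRNA MIR21 (72 bases, chromosome 17, 59841266 to 59841337), 3335 bases from its start. Transcripts that read through this end of VMP1 are a known source of that microRNA. Its mature sequence from RefSeq (GRCh38.p14, chr17:59841273-59841294, plus strand) is shown because part of the value of VMP1 comes from RNA that carries it, with the seed, bases 2 to 8, in capitals.
hsa-miR-21-5p: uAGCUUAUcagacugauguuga
The mature microRNA itself was not analysed here.

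Among the other genes of membrane supply, the WIPI proteins bind the marked membrane and recruit the conjugation system. WIPI1 had 2.77 in resistant cells, against 1.36 in parental cells (log2 ratio 0.68), and WIPI2 had 9.96 in resistant and 8.06 in parental cells (0.27). Most of the listed value of WIPI2 lay in the retained-intron transcript WIPI2-209, at 6.48 in resistant and 4.87 in parental cells. WIPI2-205 at 1.37 in resistant and 1.42 in parental cells and WIPI2-207 at 1.25 in resistant and 0.812 in parental cells came next by value. This order depends on locus length, 1920 bases for WIPI2-209 and 8252 for WIPI2-205. Counts were 588 in resistant and 640 in parental for WIPI2-209, and 533 in resistant and 803 in parental for WIPI2-205. In WIPI1, WIPI1-205 had 1.65 in resistant and 0.583 in parental cells, while its processed transcripts WIPI1-204 and WIPI1-207 differed in opposite directions. WIPI1-204 had 0.712 in resistant cells, against 0.000082 in parental cells, and WIPI1-207 had 0.00979 in resistant and 0.518 in parental cells. Their fold changes in the authors' deposited table correspond to counts of 808 in resistant and 1 in parental for WIPI1-204 and of 0 in resistant and 1286 in parental for WIPI1-207. Division by locus length gives reads of WIPI1-205 (1888 bases) more weight than reads of WIPI1-207 (36191 bases). The higher WIPI1 sum therefore does not mean more reads in resistant cells.

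ATG2B, a bridge that carries lipid to the growing membrane, had 1.88 in resistant cells, against 0.667 in parental cells (log2 ratio 0.79), and each of its 6 transcripts was higher in resistant cells. ATG2B-205, the only ATG2B transcript above 0.5, had 0.598 in resistant and 0.0948 in parental cells. Its paralogue ATG2A had 0.767 in resistant and 0.844 in parental cells. ATG9A, the membrane protein of the seed vesicles, had 1.16 in resistant and 1.06 in parental cells.

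ATG12 had the highest log2 ratio of the expressed members. ATG12, the ubiquitin-like protein that is joined to ATG5 (ENSG00000145782, chromosome 5, 115828200 to 115841858), summed to 21.1 in resistant cells, against 5.38 in parental cells, a log2 ratio of 1.79, and 98.5% of all expressed genes had a lower one. ATG12-203, a retained-intron transcript of 2 exons and 3274 bases, had 14.7 in resistant and 1.34 in parental cells and held 69.6% of the gene's value in the resistant library, against 25.0% in the parental one. ATG12-206 had 2.55 in resistant and 0.466 in parental cells, ATG12-213 had 2.45 in resistant and 1.45 in parental cells, and ATG12-211 had 1.36 in resistant and 0.771 in parental cells. ATG12-213 overlaps the neighbouring gene AP3S1 on the other strand. Of its 7 transcripts 3 were lower, and of these only ATG12-207 passed 0.5 in a library, at 0.0151 in resistant cells, against 1.20 in parental cells. Log2 fold changes in the authors' deposited table are 3.16 for ATG12-203 (adjusted p = 1.59e-11) and −12.23 for ATG12-207 (adjusted p = 7.9e-29), which correspond to counts of 2785 in resistant and 370 in parental for ATG12-203 and of 0 in resistant and 653 in parental for ATG12-207. Without ATG12-203 the log2 ratio of ATG12 was 0.56.

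ATG5, the partner of ATG12, had 1.75 in resistant cells, against 0.506 in parental cells (log2 ratio 0.87). Both of its transcripts were higher in resistant cells, ATG5-206 at 1.16 in resistant and 0.328 in parental cells and ATG5-205 at 0.599 in resistant and 0.179 in parental cells. The other conjugation genes stayed closer together. ATG7, the activating enzyme of the system, had 1.58 in resistant and 1.06 in parental cells (0.32), and the conjugating enzymes were close to level. ATG3 had 1.38 in resistant and 1.43 in parental cells (−0.03), and ATG10 had 1.09 in resistant and 1.16 in parental cells (−0.05). ATG16L1, which anchors the ATG12-ATG5 conjugate to the membrane, had 1.71 in resistant and 1.93 in parental cells (−0.11), and its relative ATG16L2 had 1.49 in resistant and 0.901 in parental cells (0.39). Of the 7 conjugation genes, 4 lay above 0 and 3 below.

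**Figure D4:**
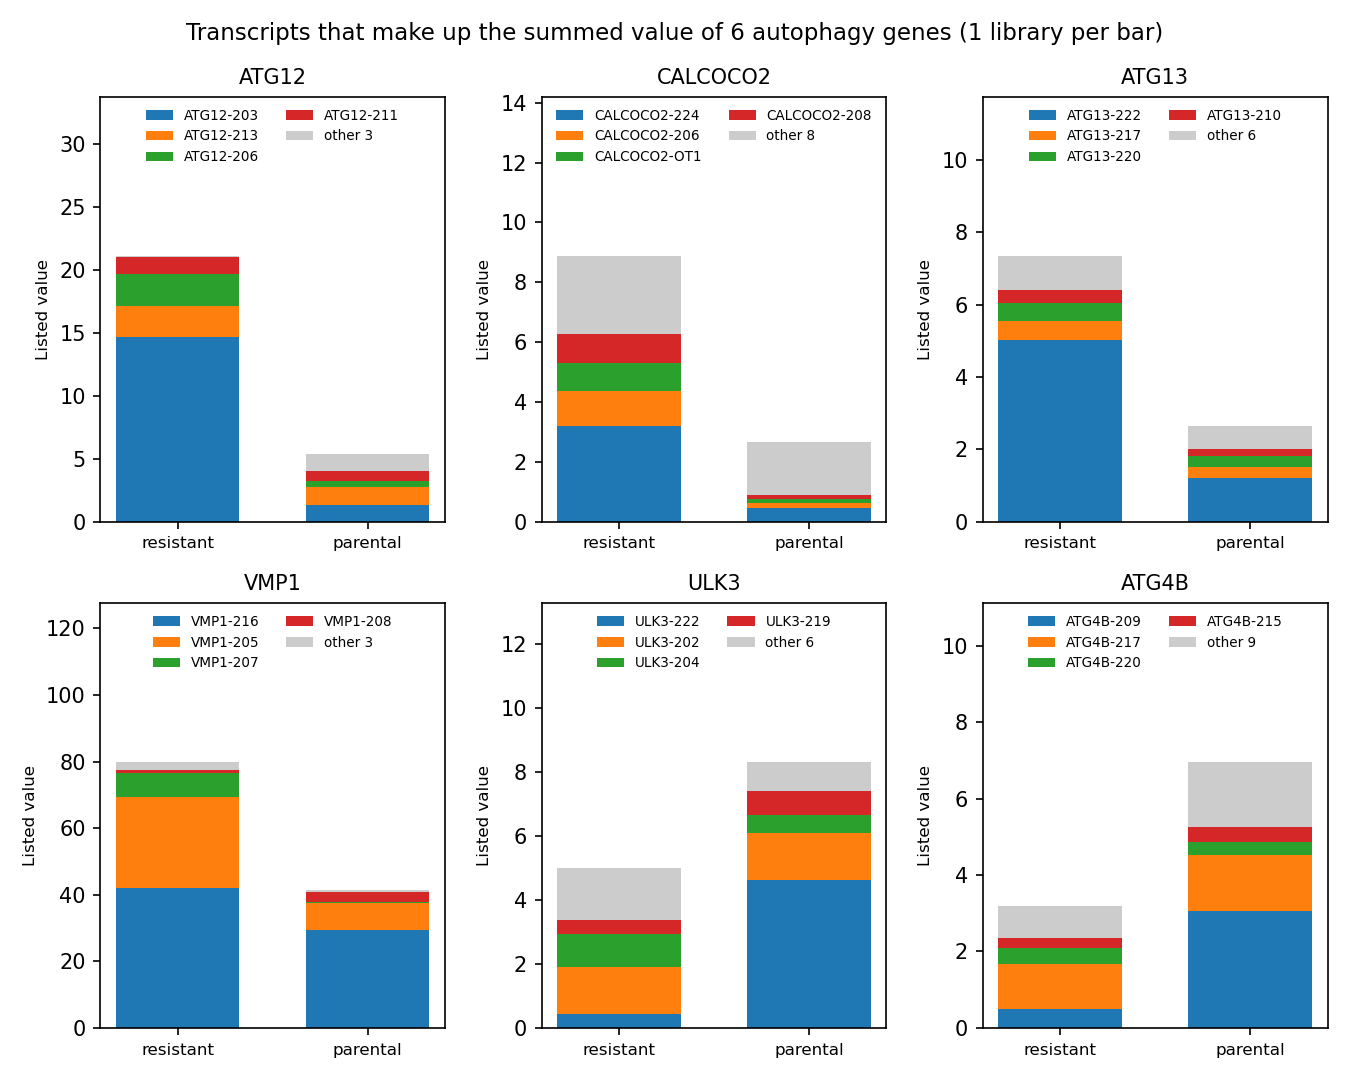
Listed value of 6 autophagy genes split into the 4 transcripts of largest value and the rest (grey), for the resistant (left bar) and the parental library (right bar), 1 library per bar, with an axis of its own for each gene. In ATG12 and ATG13 the transcripts ATG12-203 and ATG13-222 hold most of the difference, in ULK3 and ATG4B the transcripts ULK3-222 and ATG4B-209 do, and in CALCOCO2 it is spread over several.

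The ATG4 proteases trim ATG8 proteins before their attachment and release them afterwards. ATG4B, the main one for LC3 (ENSG00000168397, chromosome 2, 241637213 to 241673857), had 3.20 in resistant cells, against 6.95 in parental cells, a log2 ratio of −0.92, and 5.29% of all expressed genes had a lower one. ATG4B-209, 1 of the 3 member transcripts annotated as protein-coding, had 0.501 in resistant cells, against 3.06 in parental cells. Retained-intron transcript ATG4B-217 had 1.16 in resistant and 1.45 in parental cells. Of the 13 ATG4B transcripts 8 were lower in resistant cells, and without ATG4B-209 the log2 ratio was −0.40. In the authors' deposited table ATG4B-209 has a log2 fold change of −2.89 (adjusted p = 4.42e-10). ATG4D had 0.124 in resistant and 0.478 in parental cells from 1 transcript, and ATG4A 0.560 in resistant and 0.262 in parental cells, both below the expression threshold.

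Of the ATG8 proteins, which coat the membrane and bind cargo receptors, 3 of 5 were listed, each by 1 transcript. MAP1LC3B, the most used marker of autophagosomes (ENSG00000140941, chromosome 16, 87383995 to 87404779), had 0.488 in resistant cells, against 1.54 in parental cells, a log2 ratio of −0.77. Its transcript MAP1LC3B-202 runs past a coding exon into the intron, and 86.3% of its bases lie outside coding isoforms. The authors' deposited table gives it a log2 fold change of −1.94 (adjusted p = 3.93e-05). The 355 expressed genes of chromosome 16 had a median log2 ratio of −0.22, below the 0.16 of all genes, and the part of this in the MAP1LC3B difference was not tested. MAP1LC3A had 0.00379 in resistant and 0.205 in parental cells, where the deposited fold change corresponds to a resistant count of 0. GABARAPL2, also on chromosome 16, had 0.918 in resistant and 0.431 in parental cells (0.42).

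Cargo receptors hold ubiquitin-marked cargo against ATG8 proteins. CALCOCO2, also called NDP52, which captures bacteria and damaged mitochondria (ENSG00000136436, chromosome 17, 48830988 to 48866522), had 8.88 in resistant cells, against 2.65 in parental cells, a log2 ratio of 1.44. Of its 12 transcripts 9 were higher in resistant cells. CALCOCO2-224 had 3.20 in resistant and 0.444 in parental cells, CALCOCO2-206 had 1.17 in resistant and 0.167 in parental cells, CALCOCO2-208 had 0.951 in resistant and 0.124 in parental cells, and CALCOCO2-OT1, an assembled transcript without an Ensembl identifier, had 0.937 in resistant and 0.163 in parental cells. CALCOCO2-222 had 0.619 in resistant and 0.199 in parental cells, and CALCOCO2-213 went the other way at 0.335 in resistant and 0.555 in parental cells. Without CALCOCO2-224 the log2 ratio was still 1.06. The authors' deposited table lists fold changes of 2.56 for CALCOCO2-224 (adjusted p = 6.24e-08) and 2.53 for CALCOCO2-206 (adjusted p = 7.5e-08) on the log2 scale. For CALCOCO2-218 value and fold change disagree in sign, with 0.142 in resistant cells, against 0.449 in parental cells beside a deposited log2 fold change of 6.47. Such a disagreement occurred in 9 of the 187 member transcripts. Among transcripts of the whole series above 0.5 in both libraries, value ratios lay a median of 0.28 (log2) above the deposited fold changes.

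TAX1BP1, a receptor related to CALCOCO2, had 1.999 in resistant cells, against 0.434 in parental cells, a log2 ratio of 1.06. All 3 of its transcripts were higher in resistant cells. TAX1BP1-209 had 0.840 in resistant and 0.158 in parental cells, TAX1BP1-212 had 0.772 in resistant and 0.169 in parental cells, and TAX1BP1-211 had 0.387 in resistant and 0.107 in parental cells. TAX1BP1-209 overlaps JAZF1, a gene on the other strand. In the authors' deposited table the log2 fold changes were 2.10 for TAX1BP1-209 (adjusted p = 4.4e-05), 1.87 for TAX1BP1-212 (adjusted p = 0.000734) and 1.56 for TAX1BP1-211 (adjusted p = 0.00125).

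The best-known receptor, SQSTM1 or sequestosome 1, was level at 5.75 in resistant cells, against 5.67 in parental cells (log2 ratio 0.02, and −0.18 once centred). Within it, SQSTM1-206 had 3.65 in resistant and 3.33 in parental cells, SQSTM1-208 had 0.502 in resistant and 1.33 in parental cells, and SQSTM1-210 had 0.734 in resistant and 0.235 in parental cells. NBR1, which works with SQSTM1, had 2.10 in resistant and 2.28 in parental cells, and OPTN, a mitophagy receptor, had 0.861 in resistant and 0.482 in parental cells. The receptors at least 2-fold higher were thus CALCOCO2 and TAX1BP1, and whether they differ from the other receptors was not tested.

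WDFY3, a large scaffold for protein aggregates, had 6.46 in resistant cells, against 4.16 in parental cells (log2 ratio 0.53). WDFY3-207 had 4.65 in resistant and 2.04 in parental cells, and the assembled transcript WDFY3-OT1 had 0.443 in resistant and 1.25 in parental cells. Values are divided by locus length (8326 bases for WDFY3-207, 116719 for WDFY3-OT1), so the higher WDFY3 sum does not mean more reads in resistant cells. Deposited log2 fold changes were 0.90 for WDFY3-207 and −1.79 for WDFY3-OT1. EPG5, a tether between autophagosome and lysosome, had 1.08 in resistant and 0.677 in parental cells. The transcription factors TFEB and TFE3, which switch on autophagy and lysosome genes, were listed only by non-coding transcripts of low value, which do not stand for their mRNAs. TFEB had 0.000272 in resistant and 0.134 in parental cells from 1 retained-intron transcript. Its deposited fold change corresponds to counts of 1 in resistant and 11 in parental. TFE3 had 0.305 in resistant and 0.293 in parental cells.

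TFEB and TFE3 bind an E-box within the CLEAR element, and promoters from RefSeq (GRCh38.p14, 250 bases before to 50 after a gene's start) were searched on both strands for its core, CACGTG, which reads the same on both. Promoters were found for 36 of the 42 genes, 47 in all, and 3 (6.38%) held it, beside 7.26% of all 35116 promoters. These are the windows that hold the core, in capitals.
ATG3 (chr3:112561963-112561992, minus strand): cctttctcacgtCACGTGccgggagagtct
ATG3 (chr3:112561940-112561969, minus strand): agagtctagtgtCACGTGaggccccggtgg
ATG14 (chr14:55411834-55411863, minus strand): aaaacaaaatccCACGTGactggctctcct
ULK3 (chr15:74843311-74843340, minus strand): cctccgtatcccCACGTGggccctgcagga
The core was in only 3 of the 36 genes, so their absence from the 4 with the highest ratios says little. ATG3 and ATG14 were near 0 and ULK3 was lower in the resistant line. Whether the core bears on these ratios was not tested.

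Several of these transcripts overlap another gene, and since the strand used in counting is not stated, reads of the pair cannot be told apart. They include ATG13-222 and ATG13-217 (HARBI1), WDFY3-207 (WDFY3-AS1) and WIPI1-207 (ARSG), as well as MAP1LC3B-202 and GABARAPL2-204, which overlap unnamed loci.

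At the level of single transcripts, 46 of the 187 had a mean value of at least 0.5. Of these, 16 (34.8%) were at least 2-fold higher in resistant cells by the ratio of listed values, beside 25.2% of all 12735 such transcripts, and 7 (15.2%) at least 2-fold lower, beside 14.3%. Of the 187, 24 correspond to a count of 0 in either library by the deposited fold change, 16 in the resistant and 8 in the parental one, although all had a listed value above 0 there. That is 12.8%, beside 22.3% of all transcripts. Among these 24, 20 were processed transcripts and 4 retained-intron transcripts.

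By position, 6 of the 39 listed genes lie on chromosome 17, where CALCOCO2, VMP1, WIPI1 and ULK2 (log2 ratio 0.47) were the higher ones and BECN1 and NBR1 stayed near 0. The 409 expressed genes of that chromosome had a median log2 ratio of 0.17, close to that of all genes. For ATG12 on chromosome 5 the median of its chromosome was 0.30, and for ATG4B on chromosome 2 it was 0.36, opposite in sign to ATG4B.

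Other genes of the pathway, 60 in a list of neighbouring steps, were counted in the same way. Of these 49 were listed and 30 expressed, with a median log2 ratio of 0.15, of which 4 passed 2-fold upwards, beside 8.5% of all expressed genes, and 3 downwards, beside 4.37%. On the high side were VPS33A and VPS39, subunits of the HOPS complex that fuses autophagosomes with lysosomes, at 2.18 in resistant cells, against 0.257 in parental cells (1.34) for VPS33A, and at 12.2 in resistant and 4.63 in parental cells (1.23) for VPS39. VPS33A, with a parental sum under 1, passed the filter through the resistant library. PIK3C3, the lipid kinase that Beclin 1 activates, had 4.43 in resistant and 1.503 in parental cells (1.12), and PRKAG1, a subunit of the energy sensor AMPK, had 4.03 in resistant and 1.38 in parental cells (1.08). On the low side, the mitophagy receptor FUNDC1 had 2.52 in resistant cells, against 10.9 in parental cells (−1.76), and VPS16, also of HOPS, had 3.83 in resistant and 9.72 in parental cells (−1.15). PHB2, a prohibitin with a part in mitophagy, was lowest with 20.03 and 225.9 (−3.43).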

How the data were processed

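Total RNA of 2 SKOV3 libraries, 1 per group, was analysed from the authors' table of transcripts. The submitters' processing notes name HISAT2, StringTie and the mouse build mm10, without versions, whereas the deposited identifiers and loci are human (GRCh38). The authors deposited a normalized value per transcript in an unnamed unit, and beside it a log2 fold change of resistant over parental cells with raw and adjusted p-values. Their test is not given, and their p-values compare 2 libraries. A second deposited list of 20 transcripts, all also in the table, was not used.

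Values were summed by gene name (pandas 2.3.3, Python 3.11.15) and compared as log2(value + 1). Depth is unknown. Whole counts behind the deposited log2 fold changes were solved for with constants of 0.114 (resistant) and 0.136 (parental) added to the counts, and 177 of 187 member transcripts gave a pair with at most 0.01 matches expected by chance. The solver was tested on simulated counts. Where the count was over 20, values followed count per locus length within 0.3 (log2) in 114 of 114 resistant and 125 of 125 parental cases. After the common offset of 0.28 between value ratio and fold change, 36 transcripts (19.3%) differed by more than 0.3 and are called discordant.

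The members, lists and thresholds were chosen with earlier results of these data known. Each listed member is named. Transcripts are described for expressed members with a log2 ratio of at least 0.58 in size, the 3 members of largest mean and the ATG8 family, and those with a value of at least 0.5 are given. Transcripts of UVRAG, RUBCN, SQSTM1, WDFY3, MAP1LC3A and others under 0.5 were added after their values were seen, as were the chromosome medians. The 4 highest and up to 4 lowest of the other pathway genes past 2-fold are named.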

Additional observations from a re-analysis of the deposited data

How the results depend on the processing

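No paired analysis was possible because each group has 1 library, and no replicate could be left out. The median log2 ratio of the members, 0.23, stayed above 0 in all 8 alternatives, between 0.06 (centred on all genes) and 0.40 (mean of at least 5, 8 members). The 4 members at least 2-fold higher became 6 with a pseudocount of 0.1, beside 16.6% of all genes kept. They became 1 with a pseudocount of 5, beside 1.8%, and 2 of 8 with a mean of at least 5, beside 12.3%. After centring they were 3, beside 6.09%, and with only the transcript of largest mean 3 of 13, beside 12.1%. The 0 members at least 2-fold lower became 1 after centring, beside 6.55% of all genes kept, and 2 with a pseudocount of 0.1, beside 7.53%. With only the transcript of largest mean they were 2 of 13, beside 7.94%. With values set to 0 where the count was 0, or discordant transcripts left out, both counts were as before. Signs changed for ratios of at most 0.08 in size, and for ATG7, which was at −0.01 with only the transcript of largest mean, beside 0.32. With that setting AMBRA1 was at −0.20, ATG9A at −0.17, ULK1 at −0.11 and TFE3 at −0.09, and without discordant transcripts ULK1 was at −0.05 and ATG10 at 0.03. After centring ULK1 was at −0.14, ATG9A at −0.06, SQSTM1 at −0.18, ATG14 at −0.08, AMBRA1 at −0.01 and TFE3 at −0.04. Of the 4 highest members, ATG12 stayed past 2-fold throughout, at 1.33 or more, and TAX1BP1 fell to 0.67 with only the transcript of largest mean. With a pseudocount of 5 CALCOCO2 was at 0.86, ATG13 at 0.69 and TAX1BP1 at 0.37. Across all genes that passed the filter, 490 exceeded 2-fold upwards and 252 downwards. These became 957 and 434 with a pseudocount of 0.1, 104 and 68 with one of 5, and 198 and 102 among genes averaging 5 or more. The cause of these shifts was not tested.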
